A study of Mus musculus with 2 samples.

Results

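The receptors for the cytokines that signal through the common gamma chain were followed across the immune cells of a mouse melanoma, as 8 genes of the 31055 genes counted. The members, taken by their gene symbols, were Il2ra, Il2rb and Il2rg, the alpha, beta and gamma chains of the interleukin 2 (IL-2) receptor, Il7r, Il15ra, Il21r and Il4ra, the private chains of 4 further receptors, and Il15, which is a ligand and not a receptor. All 8 were found in the feature list. The single group was immune cells of a subcutaneous B78ChOVA tumour, a line whose cells were injected into the flank of mice and which carries ovalbumin in its name, taken 16 days after injection. Neither the strain, age and number of the mice nor any pooling of tumours is stated by the labels. Live slices were marked region by region with light-placed DNA barcodes (ZipSeq), dissociated, sorted and run as droplets, and the 2 samples were the gene library and the spatial barcode library of the same cells. There were no replicates, so every interval below is a 95% interval for counting error, no test between tumours was possible, and a difference is described by its size only.

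The gamma chain (Il2rg) pairs with a private chain for each cytokine and passes the signal to the kinases JAK1 and JAK3 and on to STAT factors, mainly STAT5 for IL-2, IL-7 and IL-15, STAT3 for IL-21 and STAT6 for IL-4. IL-2 and IL-15 share the beta chain, and the alpha chain Il2ra, known as a mark of regulatory T cells and of activated T cells, makes the IL-2 receptor bind with high affinity. IL-15 is commonly held on the alpha chain Il15ra of the cell that makes it and shown to neighbouring NK and CD8 T cells. The IL-7 receptor serves naive and memory T cells and is known to be low on effector cells, and it also pairs with Crlf2 as the receptor of TSLP. Il4ra pairs with the gamma chain for IL-4, and with Il13ra1 for IL-4 and IL-13, in myeloid cells.

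The matrix held 117528298 gene UMIs (unique molecular identifiers, each counting 1 captured mRNA molecule), and 4236 barcodes were kept as cells (1000 UMIs or more, 500 genes or more, no more than 10% of UMIs mitochondrial), with a median of 23132 UMIs. Marker genes, none of them a member, placed 3655 cells in 13 classes, from 2184 macrophages, 407 intermediate cells with both macrophage and monocyte markers and 359 monocytes to 36 mature dendritic cells (DC) and 36 cDC1. The T and NK classes were 95 checkpoint-high and 99 checkpoint-low CD8 T cells (split by the sum of Pdcd1, Havcr2, Lag3, Tigit, Entpd1 and Tnfrsf9), 84 regulatory T cells (Treg, with a Foxp3 UMI), 61 Foxp3-negative CD4 T cells and 69 NK cells. A further 255 barcodes with T and macrophage markers together were held out. The median depth differed between classes, from 5522 UMIs in Foxp3-negative CD4 T cells to 30673.5 in macrophages and 71546 in 47 melanoma cells, so levels are given as CPM, the UMIs of a gene summed over the cells of a class and scaled to a total of 1e+06 UMIs. The level in free RNA, the sum of 68497 barcodes with 10 to 100 UMIs, is given beside each level as a mark of what the droplets' fluid held, and not as the background within a cell. From markers of other lineages, free RNA made up an estimated 1.09% (cDC1) to 3.17% (mature DC) of a class's UMIs, so that its 18.4 CPM of Il7r would put 0.389 CPM into macrophages and its 29.5 CPM of Il2rb 0.624 CPM. Of the 211 CD8 T cells, 24 lay within 25% of the limit for checkpoint-high cells and 11 within 25% of that for checkpoint-low cells.

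An Il2rg UMI was found in every class, and the lymphocyte classes had similar levels. It stood at 251 CPM (212–297) in NK cells, 217 (195–242) in checkpoint-high and 213 (184–245) in checkpoint-low CD8 T cells, 236 (208–267) in Treg and 248 (208–293) in Foxp3-negative CD4 T cells. The intervals of these 5 classes overlapped. Mature DC had 120 CPM, monocytes 117, nonclassical monocytes 107, cDC2 103, intermediate cells 91.0 and macrophages 60.9 (59.1–62.8), against 55.8 CPM in free RNA. cDC1 stood apart from the other DC with 12 UMIs in 36 cells, 11.9 CPM (6.14–20.8), where free RNA would give 0.609 CPM. Melanoma cells had 4 UMIs, 1.17 CPM (0.319–3.00), an interval that held the 0.720 CPM that free RNA would give.

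Il2rb, the chain that IL-2 and IL-15 share, divided lymphocytes from myeloid cells. NK cells had 679 CPM (612–751) and a UMI in 67 of 69 cells, checkpoint-high CD8 T cells 421 CPM (390–454), Treg 343 (309–379), Foxp3-negative CD4 T cells 259 (218–305) and checkpoint-low CD8 T cells 190 (163–221). Only the last 2 of these neighbours overlapped. Not 1 Il2rb UMI was found in 359 monocytes, which allows a share of cells with a UMI of up to 0.836% by the limit of 3 counts and 1.02% by the exact 95% interval, in 119 cDC2, in 36 cDC1 or in 36 mature DC. Free RNA held 29.5 CPM, so the myeloid classes lay below it, and macrophages had 1.64 CPM in 44 of 2184 cells.

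Il2ra was highest in Treg, with 119 CPM (99.1–141) and a UMI in 45 of 84 cells. Mature DC followed with 44.4 CPM (29.3–64.6) in 14 of 36 cells, checkpoint-high CD8 T cells with 38.3 (29.3–49.2) in 25 of 95 cells and NK cells with 25.1 (13.7–42.2) in 6 of 69 cells. The intervals of these 3 classes overlapped, and none reached that of Treg. Of the 14 NK UMIs, 35.7% lay in 1 cell. Foxp3-negative CD4 T cells had 18.1 CPM from 10 UMIs, of which 50% lay in 1 cell, and checkpoint-low CD8 T cells had 8.65 CPM from 8 UMIs. Macrophages, with 0.423 CPM, monocytes, with 2.23 CPM, and cDC1, with 0 UMIs, were under the 4.38 CPM of free RNA.

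Il7r had another order. Checkpoint-low CD8 T cells had 109 CPM (88.9–133) in 42 of 99 cells, Foxp3-negative CD4 T cells 97.8 (73.4–128) in 24 of 61 cells and mature DC 88.8 (66.7–116) in 23 of 36 cells, and these intervals overlapped. Treg stood lower at 38.9 CPM (28.2–52.4). NK cells, with 10.8 CPM, and checkpoint-high CD8 T cells, with 8.80 CPM (4.81–14.8), were under the 18.4 CPM of free RNA, as were monocytes with 3.71 CPM. Macrophages had 16.3 CPM (15.3–17.2), and were uneven among themselves, as described further on.

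Il15 and its presenting chain Il15ra were both highest in mature DC, cells that carry Ccr7 and Fscn1 and are known to leave tissue for lymph nodes. Il15 reached 72.3 CPM (52.6–97.1) in mature DC and 35.2 CPM (29.6–41.4) in monocytes, against 14.9 CPM in free RNA, and 14.4 CPM in intermediate cells and 14.1 CPM in macrophages. In the 5 lymphocyte classes it lay between 0 UMIs (checkpoint-low CD8 T cells) and 7.54 CPM (checkpoint-high CD8 T cells). Il15ra reached 128 CPM (101–160) in mature DC, 33.3 CPM (24.9–43.6) in checkpoint-high CD8 T cells and 24.0 CPM (19.5–29.3) in monocytes, against 7.89 CPM in free RNA. Macrophages were low, with 5.43 CPM. Il2ra and Il15ra are neighbours on chromosome 2 of the GRCm38 build (GENCODE M21 annotation), both on the plus strand with 12097 bases between them.

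Il21r and Il4ra, which also are neighbours, on chromosome 7 with 23955 bases between them, had unlike orders. Il21r was highest in checkpoint-high CD8 T cells, with 194 CPM (173–216) in 79 of 95 cells, and in mature DC, with 155 CPM (125–189), and these intervals overlapped. Foxp3-negative CD4 T cells had 107 CPM and Treg 90.5 CPM. Checkpoint-low CD8 T cells, cDC2, NK cells and the monocyte and macrophage classes lay between 43.6 and 63.3 CPM around the 50.0 CPM of free RNA, and cDC1 below it with 9.90 CPM. Il4ra was highest in myeloid cells, with 108 CPM (98.1–119) in monocytes, 106 (98.5–113) in intermediate cells, 88.5 (86.3–90.7) in macrophages and 85.5 (63.8–112) in mature DC. All lymphocyte classes and cDC1, with 20.1 to 44.9 CPM, were below the 62.5 CPM of free RNA.

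**Figure D1:**
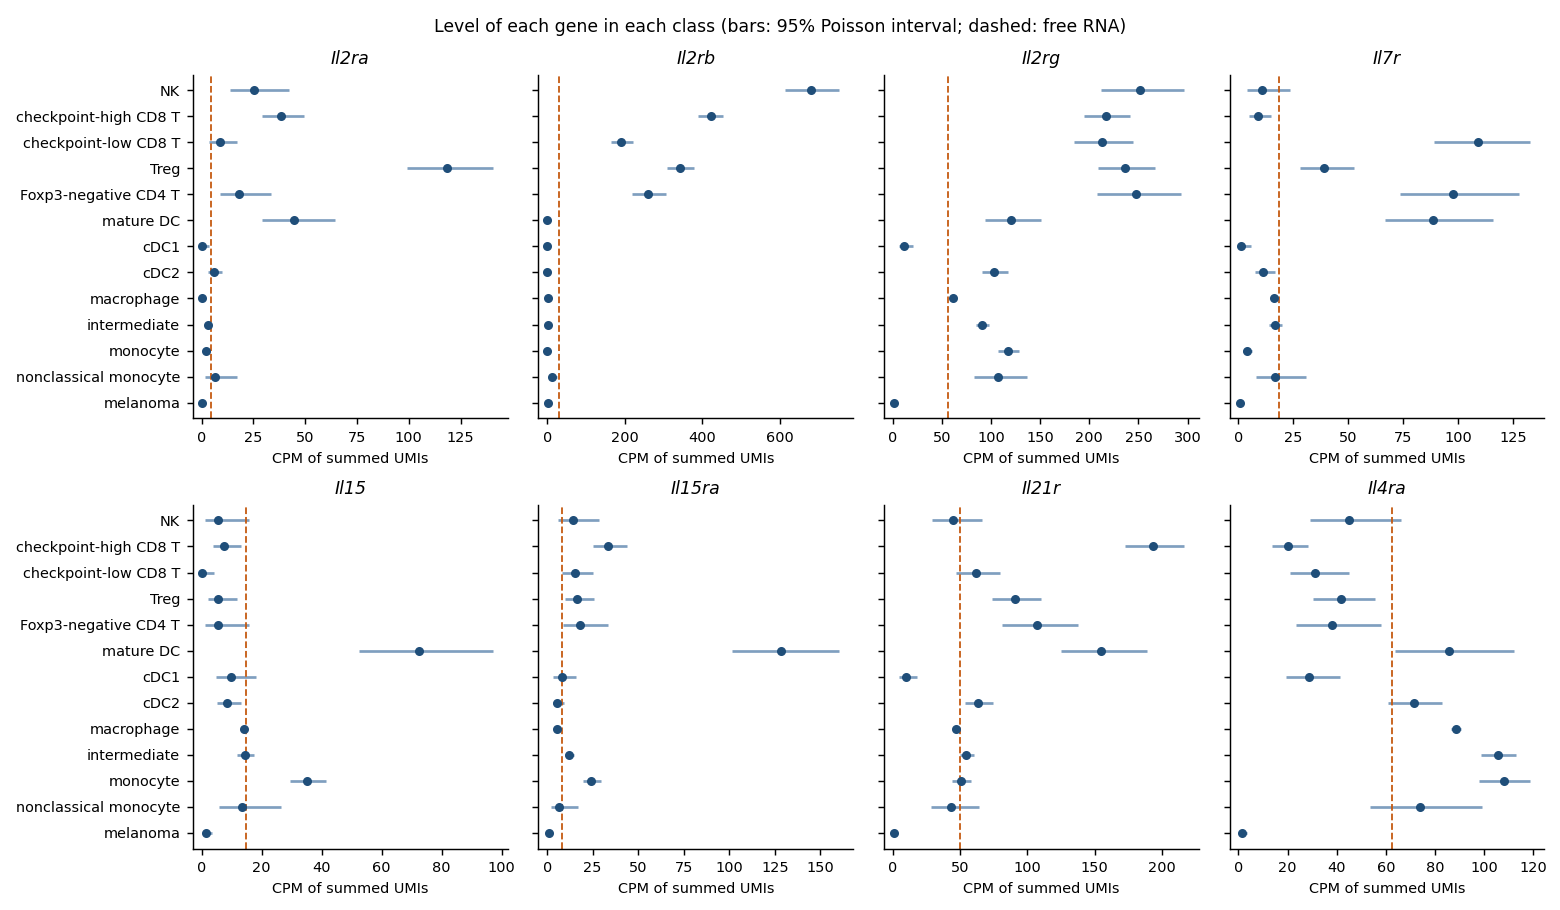
Level of each of the 8 genes (CPM of summed UMIs, x axis, a scale for each gene) in the 13 classes (y axis), with points for the class and bars for its 95% Poisson interval; the dashed line is free RNA. Il2rb is at 679 CPM in NK cells and at 0 in monocytes, while Il15 and Il15ra are highest in mature DC, at 72.3 and 128 CPM.

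RefSeq start regions (GRCm38.p6, 250 bases before to 50 after a start) were on hand for 6 of the 8 members, with 7 starts. Those shown belong to Il15ra, highest in mature DC, where the table has a second start for the gene, and to Il2rg, the shared chain, and Il7r, which differed between checkpoint-high and checkpoint-low CD8 T cells. They lie at chr2:11705462-11705761 (plus strand), chrX:101268206-101268505 (minus strand) and chr15:9529827-9530126 (minus strand). Capitals mark matches, on either strand, to an IRF-type motif, GAAANNGAA, or to the ETS-type motifs CCGGAAG and CAGGAAG.
Il15ra, second start: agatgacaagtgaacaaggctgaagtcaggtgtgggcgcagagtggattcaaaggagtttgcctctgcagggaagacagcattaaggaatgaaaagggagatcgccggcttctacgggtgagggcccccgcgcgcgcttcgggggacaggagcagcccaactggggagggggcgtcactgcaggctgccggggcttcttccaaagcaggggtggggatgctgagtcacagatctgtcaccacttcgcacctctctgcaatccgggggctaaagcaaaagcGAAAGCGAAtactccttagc
Il2rg: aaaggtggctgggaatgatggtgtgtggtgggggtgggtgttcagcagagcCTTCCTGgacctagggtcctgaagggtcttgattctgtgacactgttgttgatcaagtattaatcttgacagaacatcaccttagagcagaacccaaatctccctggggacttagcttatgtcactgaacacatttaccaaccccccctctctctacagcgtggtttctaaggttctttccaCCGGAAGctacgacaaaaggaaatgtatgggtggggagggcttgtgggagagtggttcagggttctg
Il7r: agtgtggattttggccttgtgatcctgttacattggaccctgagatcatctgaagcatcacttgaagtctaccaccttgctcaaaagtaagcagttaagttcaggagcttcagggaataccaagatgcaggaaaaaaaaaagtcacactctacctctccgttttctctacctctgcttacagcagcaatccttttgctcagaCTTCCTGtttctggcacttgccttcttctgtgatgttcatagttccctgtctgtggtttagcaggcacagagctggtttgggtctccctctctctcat
The first start of Il15ra also held a match to GAAANNGAA and 1 to CCGGAAG. Of all 32851 start regions in the table, 8.56% held GAAANNGAA, 8.86% held CCGGAAG and 13.3% held CAGGAAG. Neither Il2ra, Il4ra nor Il21r held any of the 3 in its window. A match is a run of letters and was not tied to binding.

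Checkpoint-high against checkpoint-low CD8 T cells addressed the exhausted CD8 T cells that the study's title names. Of 7 members with enough UMIs to compare (30 over both sets), 4 were at least 2-fold higher in checkpoint-high cells, where 5.44% of all genes compared were, and 1 was at least 2-fold lower, where 3.55% of all genes were. Il7r stood at 8.80 CPM in checkpoint-high and 109 CPM in checkpoint-low cells, a ratio of 0.0806 (0.0425–0.142). Il2ra stood at 38.3 against 8.65 CPM, ratio 4.43 (2.11–10.7), and Il21r at 194 against 61.6 CPM, ratio 3.14 (2.36–4.24). Il2rb stood at 421 against 190 CPM, ratio 2.21 (1.87–2.63). Il15ra stood at 33.3 against 15.1 CPM, ratio 2.20 (1.20–4.30), but when classes were taken from expression clusters in place of marker limits its log2 ratio was -0.10. Il2rg, at 217 against 213 CPM, and Il4ra, at 20.1 against 31.3 CPM, were within 2-fold. The median log2 ratio of the 7 members was 1.14, beside 0.07 for all genes compared. Median depth was 12571 UMIs in checkpoint-high and 5856 in checkpoint-low cells, and its part in the result was not tested. Thinned to 1000 UMIs each, 0 of 95 checkpoint-high and 11.1% of checkpoint-low cells kept an Il7r UMI, against 9.47% and 42.4% before thinning.

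Other genes of the pathway, in lists chosen by role, gave the same comparison a context. Of 6 measured genes of the FOXO1 program of naive and memory T cells, to which Il7r belongs, 0 were higher and 4 lower in checkpoint-high cells: the transcription factor genes Klf2 (12.6 against 116 CPM), Tcf7 (15.7 against 102) and Lef1 (6.28 against 34.6), and the egress receptor S1pr1 (8.17 against 67.0). Among 7 STAT5 target genes 3 were higher, with the cytotoxic granule genes Prf1 at 618 against 71.3 CPM and Gzmb at 1179 against 342 CPM, and 1 was lower, the survival gene Bcl2 at 36.4 against 75.7 CPM. Of 9 kinases and STATs, Stat5a (69.1 against 16.2 CPM, ratio 4.26, 2.48–7.88) and Stat3 (244 against 84.3 CPM) were higher and none lower. Of 4 feedback genes, Cish, an inhibitor induced by STAT5, was higher at 91.8 against 37.8 CPM, and Socs3 lower at 23.9 against 71.3 CPM. Of 8 interferon genes, 4 were lower and none higher, among them Ifit3 at 20.7 against 84.3 CPM. The ligand genes other than Il15 were too rare to compare in this or most comparisons: Il4 and Il9 had 0 CPM in all 13 classes, and Il2 and Il7 did not pass 8.22 CPM and 3.29 CPM.

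Treg against Foxp3-negative CD4 T cells differed in the alpha chain. The gate of the second class also asked for under 10 UMIs per 10000 of Foxp3, Ikzf2, Ctla4 and Tnfrsf4 together. CD4 T cells without a Foxp3 UMI but over that limit were in neither class, so the ratios are not to all Foxp3-negative CD4 T cells. Il2ra was 119 CPM in Treg and 18.1 CPM in Foxp3-negative CD4 T cells, ratio 6.55 (3.45–14.0). Il7r was 38.9 CPM in Treg and 97.8 CPM in Foxp3-negative CD4 T cells, ratio 0.398 (0.260–0.605). Of 6 members compared 1 was thus 2-fold higher, where 6.27% of all genes were, and 1 lower, where 4.52% were. Il2rb (343 against 259 CPM), Il2rg (236 against 248), Il21r (90.5 against 107) and Il4ra (41.6 against 38.0) were within it. With marker limits doubled, 1 member passed. Cish, at 151 CPM (129–176) in Treg and 101 (76.6–132) in Foxp3-negative CD4 T cells, was highest of all classes in Treg, but these intervals overlapped. The interval of Foxp3-negative CD4 T cells also overlapped that of checkpoint-high CD8 T cells. Socs2, another STAT5-induced inhibitor, was 38.9 against 14.5 CPM, ratio 2.69. Of 6 STAT5 targets 1 was higher, Gzmb at 194 against 54.3 CPM, and 3 lower, among them Prf1 at 13.6 against 297 CPM and Bcl2 at 14.5 against 59.7 CPM. Markers of cDC2 summed to 170 CPM in Treg and 0 in Foxp3-negative CD4 T cells, and their part was not tested.

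NK against all CD8 T cells put the beta chain above and 2 private chains below. Il2rb was 679 CPM in NK cells and 330 CPM in CD8 T cells, ratio 2.06 (1.82–2.32). Il7r was 10.8 against 41.5 CPM, ratio 0.260 (0.0934–0.583), from 6 NK UMIs, and Il21r was 44.9 against 137 CPM, ratio 0.328 (0.210–0.492). The CD8 T cells were mixed in both genes. Il7r was 109 CPM in checkpoint-low cells, while the interval of checkpoint-high cells (4.81–14.8) overlapped that of NK cells (3.95–23.5). Il21r was 194 CPM in checkpoint-high cells, while the interval of checkpoint-low cells (46.7–79.8) overlapped that of NK cells (29.1–66.3). Of 7 members compared 1 was 2-fold higher, where 5.35% of all genes were, and 2 lower, where 11.8% were. Il2rg (251 against 208 CPM) and Il2ra (25.1 against 26.7) were within 2-fold, as was Il4ra, just inside it at 44.9 against 22.5 CPM. Both stood at the limit: Il2rb was past 2-fold in 7 of 10 alternative settings (log2 0.91 to 1.26) and Il4ra in 6 of 10 (log2 0.56 to 1.40). Of the FOXO1 program, whose Il7r was lower, 4 of 8 genes were higher in NK cells, among them Klf2 at 233 against 49.9 CPM, and 1 was lower, S1pr1 at 8.98 against 27.8 CPM. Of 7 STAT5 targets Bcl2 (221 against 48.2 CPM) and Pim1 (560 against 267 CPM) were higher, and Gzmb was lower at 442 against 923 CPM.

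Mature DC against cDC2 gave the widest difference among the 6 comparisons for a member. Il15ra was 128 CPM in mature DC and 5.48 CPM in cDC2, ratio 23.4 (12.9–45.9), and Il15 was 72.3 against 8.43 CPM, ratio 8.58 (4.95–15.4). Il7r was 88.8 against 11.4 CPM, ratio 7.80 (4.83–12.9), and Il2ra was 44.4 against 5.90 CPM, ratio 7.52 (3.81–15.5). Il21r was 155 against 63.3 CPM, ratio 2.44 (1.87–3.18). Of 7 members compared 5 were at least 2-fold higher and none lower, beside 10.1% and 23.8% of all genes, and Il2rg (120 against 103 CPM) and Il4ra (85.5 against 71.3) were within 2-fold. The top cell of each gene held at most 22.2% of its UMIs in mature DC. T markers summed to 11.5 CPM in mature DC and 4.64 CPM in cDC2, against 5302 CPM in checkpoint-high CD8 T cells, and without cells that held a T marker UMI the log2 ratios of Il2ra and Il7r were 3.74 and 3.24.

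Below the receptors, Jak2 (276 CPM in mature DC, 116 in cDC2), Stat3 (220 against 83.5) and Stat5a (78.9 against 33.3) were higher and Stat5b (9.86 against 20.7) was lower, of 9 kinases and STATs. Socs2 stood at 564 CPM in mature DC and 8.43 CPM in cDC2, ratio 66.9 (42.6–111), while Cish (9.86 against 43.4 CPM) and Socs3 (37.8 against 179) were lower, of 5 feedback genes. Crlf2, the partner of Il7r in the TSLP receptor, was lower at 52.6 against 186 CPM. Of 8 interferon genes none was higher and 3 were lower, among them Irf7 (54.3 against 177 CPM).

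cDC1 had less of the gamma chain, Il21r and Il4ra than cDC2. Il2rg was 11.9 CPM in cDC1 and 103 CPM in cDC2, ratio 0.115 (0.0586–0.205). Il21r was 9.90 against 63.3 CPM, ratio 0.157 (0.0736–0.296), and Il4ra was 28.7 against 71.3 CPM, ratio 0.403 (0.262–0.600). Of 4 members compared these 3 were lower, where 12.4% of all genes were, and none higher, where 4.55% were. Il15 was 9.90 against 8.43 CPM from 10 and 20 UMIs. The other 4 had too few UMIs to compare, among them Il15ra at 7.92 against 5.48 CPM and Il2rb at 0 in both. The median depth was 26397 UMIs in cDC1 and 18869 in cDC2. Of 4 feedback genes 3 were lower in cDC1, among them Cish (6.93 against 43.4 CPM) and Socs3 (37.6 against 179), and of 6 STAT6 targets all 6 were lower, among them Retnla (1.98 against 292 CPM) and Tgm2 (0.99 against 38.0); another of them, Mgl2, is also a marker by which cDC2 were gated. The mature DC and cDC1 comparisons share the same 119 cDC2.

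Macrophages against monocytes, the 2 large myeloid classes, had less of the IL-15 pair and, as a class, more Il7r. Il15 was 14.1 CPM in macrophages and 35.2 CPM in monocytes, ratio 0.400 (0.336–0.481), and Il15ra was 5.43 against 24.0 CPM, ratio 0.226 (0.181–0.286). Il7r was 16.3 against 3.71 CPM, ratio 4.38 (2.64–7.85), from 1153 and 15 UMIs. The higher Il7r was not shared by all macrophages: 59.8% of its UMIs lay in 1 expression cluster of 327 cells. Clusters 1, 3 and 4, with 309, 577 and 317 cells, stood at 1.84, 1.79 and 3.05 CPM. Their intervals (1.05–2.99, 1.21–2.55 and 2.21–4.11) overlapped that of monocytes (2.08–6.13), where 1 cell held 26.7% of the Il7r UMIs. Il2rb was 1.64 CPM in macrophages and 0 in monocytes, which makes it at least 2.20-fold higher with 3 counts over the monocytes as the floor; the 95% interval of the ratio reached down to 1.76, under 2-fold. That call was lost with classes from expression clusters (log2 0.49), with free RNA subtracted (0.45), with halved marker limits (0.91) and without cells that held a T marker UMI (0.41). Of 7 members compared 2 were higher and 2 lower, beside 19.5% and 9.5% of all genes. Il2rg, at 60.9 against 117 CPM with a ratio of 0.519 (0.472–0.572), was just inside 2-fold, and Il21r (47.2 against 50.8) and Il4ra (88.5 against 108) were well inside. Of 8 interferon genes 7 were lower, among them Isg15 at 173 against 583 CPM and Mx1 at 13.3 against 97.3 CPM. Of 9 STAT6 targets 6 were higher, with Arg1 at 106 against 20.6 CPM and Mrc1 at 121 against 27.5 CPM, and 2 lower, of which Chil3 is a monocyte gate marker; Il13ra1, the second partner of Il4ra, was lower at 34.3 against 107 CPM. Of 9 kinases and STATs 3 were lower, among them Jak2 at 19.0 against 75.8 CPM.

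Intermediate cells, compared after the data were seen, had pooled levels of Il7r and Il15 near those of macrophages. Their Il15ra lay between macrophages and monocytes. For Il7r the ratio of macrophages over intermediate cells was 0.973 (0.813–1.17), but its log2 ran from -0.79 to 0.97 over 11 alternative settings. Il7r was 16.7 CPM in intermediate cells and 3.71 CPM in monocytes, ratio 4.50 (2.63–8.27), and Il15 was 14.4 against 35.2 CPM, ratio 0.411 (0.319–0.529). Il15ra was 11.9 CPM in intermediate cells, 0.497 (0.371–0.666) of the monocyte level, and macrophages had 0.455 (0.363–0.576) of the intermediate level. Of the members, 3 of 7 passed 2-fold between intermediate cells and monocytes and 2 of 8 between macrophages and intermediate cells, beside 13% of all genes in both. The second of those 2, beside Il15ra, was Il2ra at 0.423 CPM in macrophages against 3.02 CPM in intermediate cells. With classes from expression clusters the log2 ratio of Il7r between intermediate cells and monocytes was 0.96, under 2-fold.

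**Figure D2:**
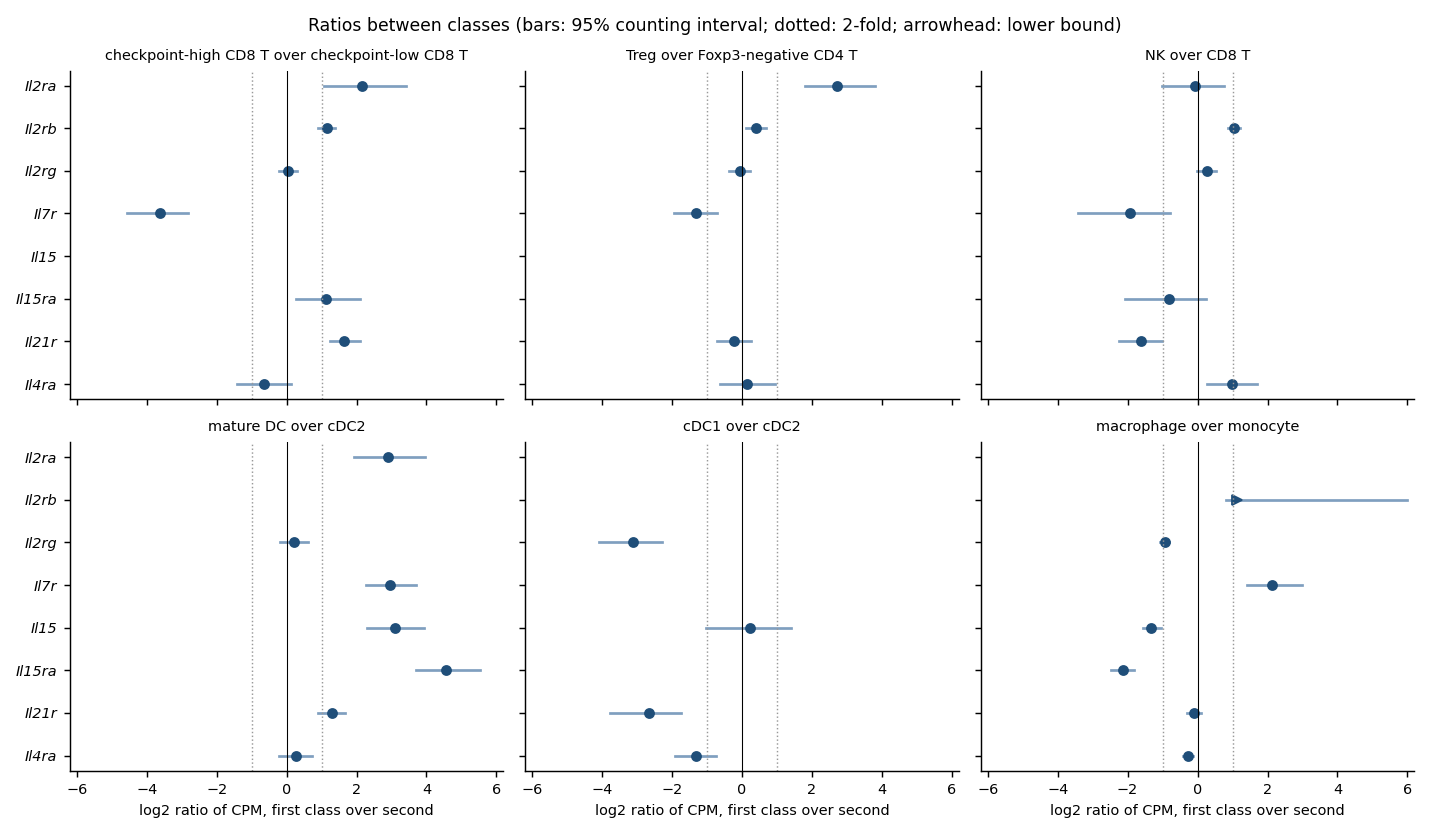
Ratio of CPM between the first and the second class of each of the 6 comparisons (log2, x axis) for each gene with enough UMIs (y axis), with bars for the 95% counting interval, dotted lines at 2-fold and an arrowhead for a lower bound. Il7r is at a ratio of 0.0806 in checkpoint-high over checkpoint-low CD8 T cells and Il15ra at 23.4 in mature DC over cDC2.

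Chains of 1 receptor were also sought in the same cell. Il2ra, Il2rb and Il2rg together, the high-affinity IL-2 receptor, had a UMI each in 37 of 84 Treg (44.0%, 33.2–55.3) and in 23 of 95 checkpoint-high CD8 T cells (24.2%, 16.0–34.1), against 5 of 61 Foxp3-negative CD4 T cells, 5 of 99 checkpoint-low CD8 T cells and 5 of 69 NK cells. Of the 6 DC and monocyte to macrophage classes other than macrophages none had such a cell, and 2 of 2184 macrophages did. Il2rb with Il2rg, the pair that can bind IL-15 and IL-2 without an alpha chain, was found in 81.2% of NK cells, 84.2% of checkpoint-high and 48.5% of checkpoint-low CD8 T cells. Il15 with Il15ra was found in 16 of 36 mature DC (44.4%, 27.9–61.9), against 26 of 359 monocytes (7.24%) and 123 of 2184 macrophages (5.63%), although macrophages were the deeper cells. Il7r and Il2ra were found together in 11 of 36 mature DC and 11 of 84 Treg. Most counts were near those that independent detection of the genes would give: 34.0 Treg and 20.2 checkpoint-high cells for the 3 IL-2 receptor chains, 14.6 mature DC for Il15 with Il15ra, and 8.94 mature DC and 11.2 Treg for Il7r with Il2ra. For Il15 with Il15ra it was 14.6 monocytes and 95.6 macrophages, fewer than were found. The shares depend on depth, and after thinning to 1000 UMIs per cell 1 Treg kept all 3 IL-2 receptor chains, 2 mature DC kept Il15 with Il15ra, and 11 NK cells kept Il2rb with Il2rg.

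**Figure D3:**
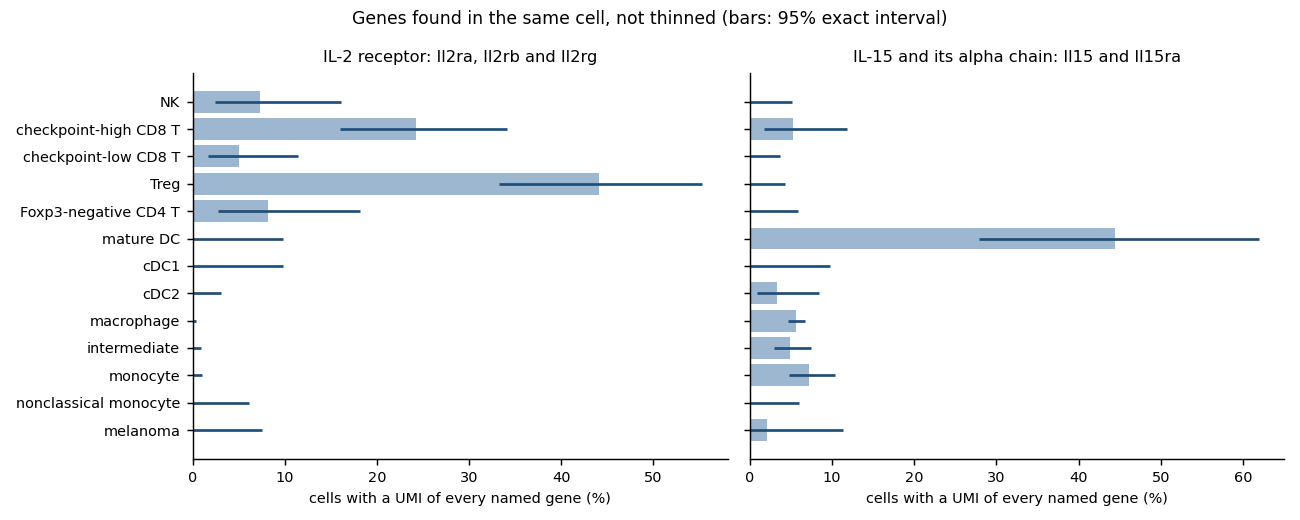
Share of cells (x axis, %) in each class (y axis) with a UMI of Il2ra, Il2rb and Il2rg (left) or of Il15 and Il15ra (right), with 95% exact intervals and no thinning. Treg lead the left panel at 44.0% and mature DC the right one at 44.4%.

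Among macrophages the members were uneven, and Il7r most of all. The macrophage-gated cells fell into 9 expression clusters of at least 20 cells, made without the members, and the clusters described here were picked after their member levels were seen. In 327 cells of cluster 7 Il7r was 80.9 CPM (74.99–87.2), against 7.42 CPM in all other macrophages, ratio 10.9 (9.67–12.3), which put 59.8% of the Il7r UMIs of macrophages in this cluster, in 163 cells of which the top held 3.19%. Its leading genes were the heat shock genes Hspa1b and Hspa1a, Adm, the nitric oxide synthase gene Nos2 and Tgfb3, and it held the glucose transporter Slc2a1 at 647 CPM and Arg1 at 404 CPM. Its T markers were 4.22 CPM, beside 4.26 and 4.05 CPM in clusters 1 and 3, where Il7r was 1.84 and 1.79 CPM. The part of T cell RNA in the Il7r level was not tested. Cluster 13, led by Ear2 and the coagulation factor gene F7, had 35.6 CPM (29.6–42.5) of Il7r. Hspa1a was 834 CPM in cluster 7 and 19.2 CPM in other macrophages, and the part of stress, which is known to induce it, in the Il7r level was not tested.

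A split on Slc2a1 was not separate from the clusters, since Slc2a1 was chosen after its level in cluster 7 was seen and that cluster held 48.8% of its UMIs in macrophages. The 25% of macrophages with the most Slc2a1, 546 cells, had 51.0 CPM of Il7r and the other 1638 had 6.04 CPM, ratio 8.45 (7.42–9.62), and without cells that held a T marker UMI the log2 ratio was 3.52 in place of 3.08. It was the 1 member of 8 past 2-fold, beside 6.39% of all genes. Il2rg (46.4 against 65.2 CPM) and Il15ra (3.35 against 6.04 CPM) were lower within 2-fold. Of the lists, the FOXO1 program had 1 of 7 genes at least 2-fold higher, the STAT5 targets 1 of 7 and the feedback genes 0 of 5. None of these genes was 2-fold lower. The median log2 ratios of the 3 lists were 0.58, 0.03 and 0.06, beside -0.15 for all genes compared.

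Il15ra and Il4ra were highest in other clusters than Il7r, while Il15 had no cluster of its own. Cluster 5, 223 cells led by the interferon genes Ifit3b, Ifit3 and Cmpk2, had 24.3 CPM of Il15 (20.7–28.2), against 13.0 CPM in other macrophages, an interval that overlapped those of clusters 7 (20.3 CPM, 17.4–23.5), 13 (20.1 CPM, 15.7–25.5) and 12 (21.2 CPM, 10.9–37.0), and 11.9 CPM of Il15ra (9.48–14.8), against 4.73 CPM, ratio 2.52 (1.95–3.22). Its Il15ra interval overlapped that of cluster 0 (8.38 CPM, 4.88–13.4) and that of cluster 12. Splits on Isg15 and Mrc1, like that on Slc2a1, were not among the planned comparisons. That on Isg15 was not separate from the clusters, since cluster 5 held 36.4% of the Isg15 UMIs of macrophages. By the split on Isg15, the 25% with the most had 22.8 CPM of Il15 and the rest 11.2 CPM, ratio 2.04 (1.79–2.32). Il15ra was 8.02 against 4.58 CPM, ratio 1.75 (1.41–2.17). In that split 3 of 8 members passed 2-fold, beside 3.14% of all genes, the other two being Il2rb (3.13 against 1.14 CPM) and Il2ra (0.74 against 0.32 CPM), and T markers were 9.73 against 6.997 CPM. Cluster 12, 22 cells led by Saa3, Retnla and Lyz1 and with Mrc1 at 554 CPM, had 251 CPM of Il4ra (211–295), against 87.2 CPM in other macrophages, ratio 2.87 (2.42–3.39), of which 21.1% came from 1 cell. It also had the highest Il2rg, 127 CPM, and its T markers were 29.99 CPM, higher than in the other 8 clusters. In the split on Mrc1 the 25% with the most had 118 CPM of Il4ra and the rest 79.5 CPM, ratio 1.48 (1.40–1.56), within 2-fold. The 1 member past it, beside 3.46% of all genes, was Il2ra, from 3 UMIs in the high set. Il2rg ranged from 30.7 CPM in cluster 1 to 115 CPM in cluster 0 among clusters of over 50 cells.

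**Figure D4:**
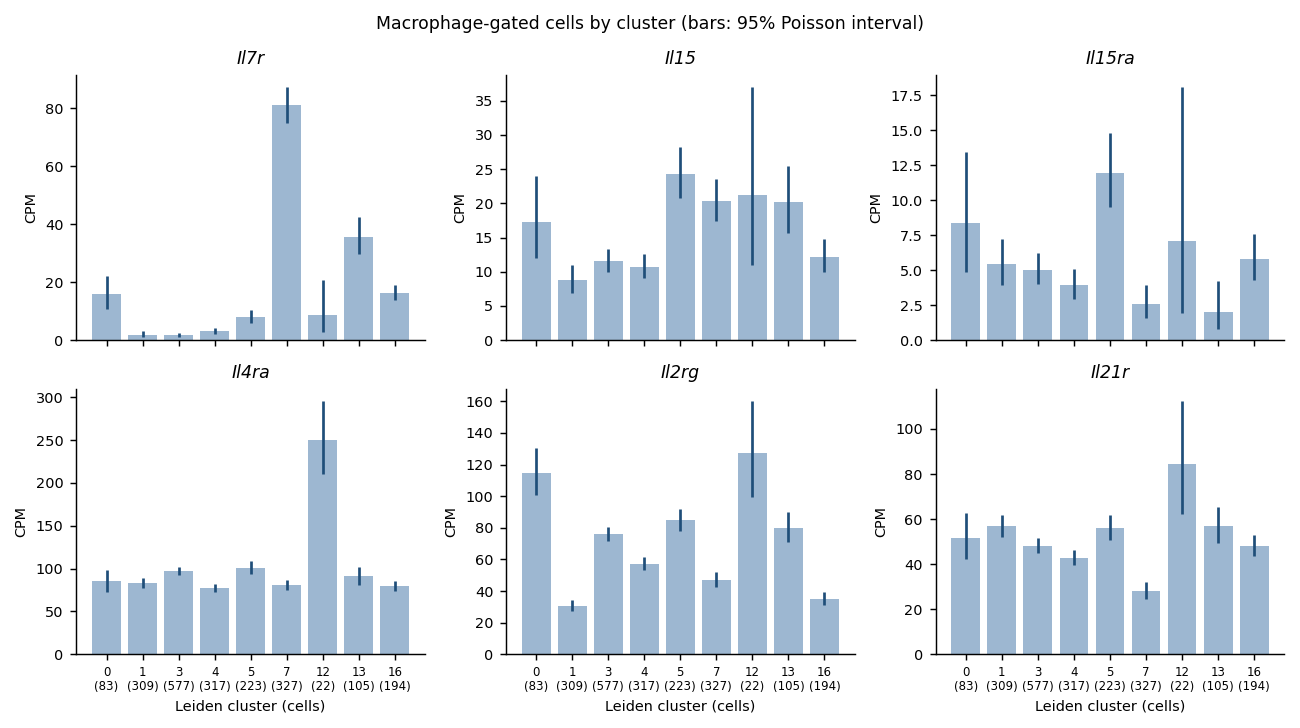
Level of 6 of the genes (CPM, y axis) in macrophage-gated cells of each expression cluster (x axis, number of cells in brackets), with 95% Poisson intervals. Il7r stands at 80.9 CPM in cluster 7 and at 1.79 CPM in cluster 3, and Il4ra at 251 CPM in cluster 12.

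The spatial barcodes ZC1, ZC2 and ZC3 mark regions that the sources used here do not describe. Under the first rule, 10 counts of a barcode and 2-fold more than of any other, none of the 13 classes had 20 cells for ZC1 or ZC2, so that only CD8 T cells as a whole and all T cells could be compared; a relative assignment, which corrects each barcode for its share in free barcodes, is given for the classes. In all T cells Il7r was 212 CPM in 34 ZC1 cells and 32.0 CPM in 139 ZC3 cells, ratio 6.63 (4.23–10.3), by the first rule, and 133 CPM in 140 ZC1 cells and 26.4 CPM in 84 ZC3 cells, ratio 5.02 (3.32–7.84), by the second. By the first rule 2 of 7 members passed 2-fold in ZC1, beside 23.4% of all genes. They were Il7r and Il15ra, which was lower from 1 UMI in ZC1, ratio 0.282 (0.00696–1.67). By the second rule Il7r alone passed, beside 7.28%. In CD8 T cells, by the relative assignment, Il7r was 133 CPM in ZC1, 26.5 in ZC2 and 15.3 in ZC3. Of the members compared there, 1 of 5 passed 2-fold in ZC1, beside 17.5% of all genes. In ZC2 only Il2rb, Il2rg, Il15ra and Il21r were compared and none passed, beside 4.15%. Il7r, with 17 UMIs in ZC2 and 10 in ZC3, had too few to compare. By the first rule 1 of 5 members passed in ZC2, Il2ra from 2 UMIs, beside 13.5%. In all T cells of ZC2, 2 of 7 passed by the first rule, Il7r (64.0 against 32.0 CPM) and Il2ra (14.8 against 49.1 CPM), beside 8.28%, and 0 of 7 by the relative assignment, beside 3.45%. The makeup moved with the region: 41, 21 and 14 checkpoint-low and 13, 20 and 22 checkpoint-high cells came from ZC1, ZC2 and ZC3. Within checkpoint-low cells alone Il7r was 220 CPM (167–285) in ZC1, 68.9 (36.7–118) in ZC2 and 45.7 (21.9–84.0) in ZC3, from 58, 13 and 10 UMIs, and checkpoint-high cells had 0, 3 and 0 UMIs. In all CD8 T cells Il2rb, the chain that checkpoint-high cells had more of, was 243 CPM in ZC1, 420 in ZC2 and 299 in ZC3. These levels were within 2-fold of each other. In the same order it was 374, 500 and 358 CPM in checkpoint-high cells alone and 167, 265 and 187 CPM in checkpoint-low cells alone.

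For myeloid cells the regions rest on the relative assignment. The first rule left 157 of its 199 ZC1 macrophages without a region and called 37 of them ZC3 and 5 ZC1, and of its 214 ZC2 macrophages it left 208 without a region. Of 91 ZC1 and 54 ZC2 intermediate cells it gave 0 and 1 the same region, left 82 and 53 without one and called 9 of those in ZC1 ZC3. By this assignment Il7r of macrophages was lowest in ZC3, with 20.2 CPM in ZC1 and 24.3 CPM in ZC2, against 7.31 CPM in ZC3, ratios 2.76 (2.16–3.51) and 3.32 (2.65–4.14). The intervals of ZC1 (16.7–24.2) and ZC2 (20.6–28.4) overlapped. Il7r and Il2rb were the 2 members past 2-fold in each region, beside 3.8% of all genes in ZC1 and 3.29% in ZC2. Il2rb was 3.51, 3.40 and 0.984 CPM in ZC1, ZC2 and ZC3, and T markers were 8.42, 7.57 and 6.12 CPM, whose part was not tested. The share of cluster 7 did not follow the Il7r level, with 32 of 199 macrophages in ZC1, 20 of 214 in ZC2 and 98 of 654 in ZC3. Il7r differed within it, at 94.5 (73.8–119), 160 (127–200) and 33.8 (27.2–41.4) CPM in ZC1, ZC2 and ZC3, and in the other macrophages at 8.89, 12.9 and 3.78 CPM. Intermediate cells ran the other way, with 9.37 CPM in ZC1 and 4.52 CPM in ZC2, against 20.7 CPM in ZC3, from 14, 5 and 42 UMIs. The top cell held 14.3% of the 133 Il7r UMIs of all intermediate cells, and its part in these levels was not tested. Of the members, 2 passed 2-fold in intermediate cells of ZC1, beside 6.18% of all genes, and 1 in ZC2, beside 2.69%. With halved marker limits 0 members passed in intermediate cells of either region.

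Il15 of monocytes was 9.20 CPM in 74 ZC1 cells and 44.8 CPM in 79 ZC2 cells, against 47.5 CPM in 87 ZC3 cells, and the ratio of ZC1 over ZC3 was 0.194 (0.0787–0.417), from 8 and 43 UMIs. It was the 1 of 5 members compared that passed 2-fold, beside 5.75% of all genes. Isg15 in the same monocytes was 220 CPM in ZC1, 768 in ZC2 and 730 in ZC3, and Hspa1a was 191, 368 and 1428 CPM, and the part of either in the Il15 level was not tested. The first rule left 67 of these 74 ZC1 and 73 of these 79 ZC2 monocytes without a region. Past 2-fold were 0 of 5 members compared in monocytes of ZC2, beside 3.24% of all genes, 0 of 3 in cDC2 of ZC1, beside 10%, and of ZC2, beside 5.53%, and 0 of 4 in checkpoint-high CD8 T cells of ZC2, beside 5.18%. Il15 of macrophages differed little, at 14.7, 14.8 and 12.9 CPM.

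**Figure D5:**
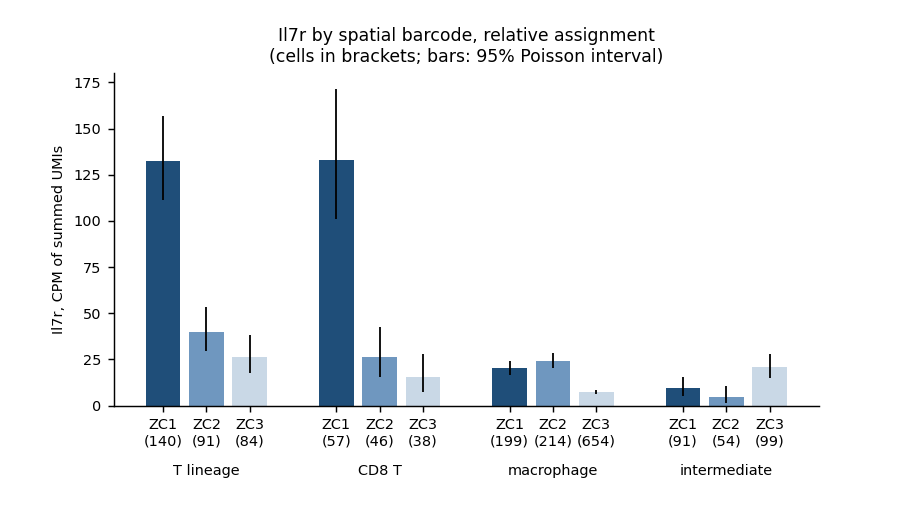
Il7r (CPM, y axis) in T cells, CD8 T cells, macrophages and intermediate cells by spatial barcode (x axis, cells in brackets) under the relative assignment, with 95% Poisson intervals. T cells stand at 133 CPM in ZC1 and 26.4 in ZC3, while intermediate cells are highest in ZC3 at 20.7 CPM.

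Checkpoint-high CD8 T cells with a UMI of dsRed, a reporter counted among the features whose source is not stated, were within 2-fold of those without in the members compared. Il2ra was 34.4 CPM in 34 cells with a dsRed UMI and 41.6 CPM in 61 cells without, Il2rb 373 against 462 CPM, Il21r 212 against 178 CPM and Il15ra 26.1 against 39.3 CPM. None of the 6 passed it, beside 6.09% of all genes, in a comparison added after the data were seen. Cells with dsRed were the deeper ones, with a median of 17430 against 9858 UMIs.

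Across the 13 classes, the genes most like each member by Pearson's r of log2(CPM + 1), among 11310 genes with at least 100 UMIs, were Gpr174 (0.99), Gimap4 and Zap70 (0.98 each) for Il2rb, a T cell receptor kinase gene among them, and Rhof (0.95) for Il2ra. For Il21r the nearest was Il2rg itself (0.92), for Il2rg Pdcd10 (0.96), for Il4ra Trim25 (0.97) and for Il15ra Nsmce3 and Relb (0.92 each), of which Relb is a marker of the mature DC gate. Il7r (0.85 with Izumo4) and Il15 (0.88 with Pgap2) had less close neighbours. Among the members themselves r ranged from -0.52 for Il2rb with Il15 to 0.92. The classes share 1 library and its free RNA, so these are descriptions of 13 points.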

How the data were processed

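Gene and spatial barcode UMIs of the same cells were deposited by the authors as counts in 1 unfiltered matrix, with each feature's kind named per the file headers; the values are whole numbers. The submitters' processing notes name Cell Ranger 4.0.0 and the mm10 build, and no further settings. The 8 members and the gene lists were chosen with earlier results of these data known.

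Cells were gated by summed marker UMIs per 10000, with limits set after seeing the distributions and cluster medians of the markers. No doublet caller was run; barcodes with T and macrophage markers were held out. Class names rest on RNA alone. Intervals are at 95% and cover counting error only: exact Poisson for CPM, Clopper-Pearson for shares and conditional binomial for ratios. A gene was compared with 30 UMIs or more in the 2 sets together and 3 or more expected in the smaller set; the second condition was added once values had been seen. Sets with 0 counts were put at 3. No test was made, since there was 1 library.

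Clusters (Leiden, resolution 1, 2000 variable genes, 30 components, 15 neighbours, seed 0) left the members out. The rule for naming list genes was the 2 highest and 2 lowest of a list in a comparison; some were left out, and others named were chosen after their values were seen. Alternatives changed the cell limits, marker limits, clustering, averaging, free RNA, top cells, UMI minimum and barcode rule. Code was tested on simulated data. Clustering used scanpy 1.11.5, igraph 0.11.9 and scikit-learn 1.9.0, intervals scipy 1.17.1 and figures matplotlib 3.10.9.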

Additional observations from a re-analysis of the deposited data

How the results depend on the processing

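No paired analysis was possible because there was 1 library and no replicate. Of 32 member ratios past 2-fold, 330 of 331 alternative values kept their sign and 305 stayed past 2-fold; the exception was Il15ra in checkpoint-high over checkpoint-low CD8 T cells, at -0.10 (log2) with classes from expression clusters. In that comparison the members past 2-fold numbered 3 with those clusters in place of 5, and the genes past 2-fold numbered 1993 with clusters, 1005 by the mean of the cells' CPM and 1329 with a minimum of 10 UMIs in place of 603. In Treg over Foxp3-negative CD4 T cells 1 member passed in place of 2 with marker limits doubled, and 1546 genes in place of 635 with the lower minimum; in cDC1 over cDC2 it was 1937 genes in place of 1247. Doubled limits left 9 cDC1, too few for a value.

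Counts of members past 2-fold by region rest on few cells. In CD8 T cells the count was 1 for ZC2 over ZC3, with 0 by the relative assignment and 0 with doubled limits, and 1 for ZC1 over ZC3, with 0 at a limit of 5% mitochondrial UMIs. In all T cells it was 2 for ZC1 over ZC3, with 1 by the relative assignment and 1 with halved limits, and 2 for ZC2 over ZC3, with 0 by the relative assignment and 1 each with at least 2000 UMIs, halved limits and doubled limits. With halved limits checkpoint-high CD8 T cells had 1 for ZC2 in place of 0, monocytes 2 for ZC1 in place of 1, and intermediate cells 0 for ZC1 in place of 2 and 0 for ZC2 in place of 1. With doubled limits cDC2 had 1 for ZC2 in place of 0, intermediate cells 1 for ZC1 and macrophages 1 for ZC2 in place of 2. The cause was not tested. The classes under 100 cells limit what Il15 and Il2ra can show, since a level under 3 counts was not detectable at this depth.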
